A study of Mus musculus with 24 samples.

Results

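The genes described here are 10 genes long used as readouts of the transcription factor NF-kB or as parts of its own control: Nos2, Vcam1, Icam1, Cxcl1, Tnfaip3, Birc3, Nfkbia, Nfkb1, Nfkb2 and Relb. They were chosen with earlier results of these data known, and found by symbol through the RefSeq accession that the scanner files give each probe. All 10 had a named probe (13 probes in all) among 22911 named genes, and all 10 were among the 14425 genes bright enough to be tested. The data come from ID8, a mouse ovarian cancer line that grew out of ovarian surface epithelial cells in culture, treated with recombinant mouse interferon (IFN) epsilon or IFN beta to ask what IFN epsilon does to tumour cells directly. Each interferon was given at 10, 100 or 1000 IU/ml for 3 h, and untreated cells received the vehicle, PBS. All groups are the same single cell line in culture. Each of the 3 replicates was made on its own date, called date 1, 2 and 3 below. The labels mark 2 arrays of date 3, IFN beta at 10 and at 100 IU/ml, as excluded, and they were left out, so these groups have 2 samples and every other group has 3. Each untreated sample was measured on 2 arrays, which were averaged, and 22 of 24 arrays gave 19 samples.

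NF-kB is a family of dimeric transcription factors held in the cytoplasm by inhibitors of the IkB family. Tumour necrosis factor, interleukin-1 and Toll-like receptors start a kinase cascade that destroys the inhibitor, and the freed dimers then switch on cytokines, adhesion molecules, survival genes and their own inhibitors. Type I interferons signal by another route, through a shared receptor to STAT and IRF factors, and some promoters carry sites for both systems. Nos2 is the textbook case of a gene with sites for NF-kB and for interferon-driven factors, and Vcam1 also responds to both kinds of factor.

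The sequences below show what the promoters of members hold, beside those of Tlr2 and Myd88, genes outside the group whose level rose in these cells and whose promoters hold a match. RefSeq (GRCm38.p6) promoters were on hand for 6 of the 10 members: Icam1, Nfkbia, Nfkb2, Tnfaip3, Cxcl1 and Birc3. The 250 bases before each start were searched on both strands for the kappaB consensus (by name), the core of the interferon-stimulated response element (ISRE, by name) and the STAT element GAS (TTCNNNGAA). Of 32851 promoters of this length, 7.25% held a kappaB match, 2.98% an ISRE match and 7.02% a GAS match. A kappaB match stood before 4 of the 6 members, a GAS match before 2 and an ISRE match before 0. These counts are per gene, at any of its starts (3 for Nfkb2 and 2 for Tnfaip3), while the shares are per promoter. Birc3 had no match in this window. Of other genes that rose, Irf7, Irf9 (both starts) and Rnf31 had no match either, Stat2 had an ISRE match, and Irf2 had all 3 kinds. A match is a description of the letters, not a measured binding site. Only exact fits to each pattern were counted, so a promoter without a match can still hold a site that departs from it. In the sequences, capitals mark matches: kappaB in Cxcl1, Nfkbia, Tnfaip3 (first of its 2 starts) and Tlr2, GAS in Icam1, kappaB and GAS in Nfkb2 (first of its 3 starts), and ISRE and GAS in Myd88.
Cxcl1 (chr5:90890995-90891244, plus strand): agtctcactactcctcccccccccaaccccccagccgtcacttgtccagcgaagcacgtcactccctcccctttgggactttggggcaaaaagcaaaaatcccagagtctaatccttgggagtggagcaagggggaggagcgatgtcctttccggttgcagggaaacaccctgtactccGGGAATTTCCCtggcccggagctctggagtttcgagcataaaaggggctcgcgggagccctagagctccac
Nfkbia (chr12:55492648-55492897, minus strand): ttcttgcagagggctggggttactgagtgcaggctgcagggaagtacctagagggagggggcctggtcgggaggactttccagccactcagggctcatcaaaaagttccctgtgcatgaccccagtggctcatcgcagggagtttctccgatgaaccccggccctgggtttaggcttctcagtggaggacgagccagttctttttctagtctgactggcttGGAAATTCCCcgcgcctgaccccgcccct
Tnfaip3 (chr10:19015411-19015660, minus strand): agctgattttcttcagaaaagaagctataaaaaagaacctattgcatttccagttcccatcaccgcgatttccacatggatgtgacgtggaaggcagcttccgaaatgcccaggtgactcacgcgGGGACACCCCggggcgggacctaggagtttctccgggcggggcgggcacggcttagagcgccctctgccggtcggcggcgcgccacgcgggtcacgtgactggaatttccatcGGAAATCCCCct
Nfkb2 (chr19:46304487-46304736, plus strand): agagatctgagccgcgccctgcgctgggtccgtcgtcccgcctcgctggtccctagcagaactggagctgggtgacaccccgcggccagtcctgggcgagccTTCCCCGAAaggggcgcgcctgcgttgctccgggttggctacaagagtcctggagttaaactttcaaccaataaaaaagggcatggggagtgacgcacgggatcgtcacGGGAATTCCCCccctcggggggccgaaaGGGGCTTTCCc
Icam1 (chr9:21015690-21015939, plus strand): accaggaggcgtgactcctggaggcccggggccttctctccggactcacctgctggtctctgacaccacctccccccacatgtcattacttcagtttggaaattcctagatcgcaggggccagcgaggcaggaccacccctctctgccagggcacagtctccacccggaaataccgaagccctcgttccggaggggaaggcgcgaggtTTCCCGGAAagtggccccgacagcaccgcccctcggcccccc
Myd88 (chr9:119340019-119340268, minus strand): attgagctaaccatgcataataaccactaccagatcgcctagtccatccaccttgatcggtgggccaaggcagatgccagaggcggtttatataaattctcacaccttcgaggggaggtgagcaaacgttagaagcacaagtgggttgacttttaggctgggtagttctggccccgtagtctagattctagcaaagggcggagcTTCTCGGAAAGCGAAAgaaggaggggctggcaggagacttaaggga
Tlr2 (chr3:83841609-83841858, minus strand): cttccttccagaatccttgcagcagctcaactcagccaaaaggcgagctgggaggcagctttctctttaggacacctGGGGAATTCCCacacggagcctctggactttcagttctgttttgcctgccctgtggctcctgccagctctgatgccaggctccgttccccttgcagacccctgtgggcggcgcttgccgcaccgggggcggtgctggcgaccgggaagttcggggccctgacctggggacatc
The Cxcl1 match GGGAATTTCC began 71 bases before the start. In Nfkbia the minus-strand match GGAAATTCCC began 29 bases before it, and the Tlr2 match GGGAATTCCC 172 bases before it. In Myd88 the ISRE match GAAAGCGAAA (minus strand) began 40 bases before the start and the GAS match TTCTCGGAA 46 bases before it.

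Across the 22 arrays the 75th percentile of probe intensity ranged from 643.5 to 1221, lower on date 3 (643.5 to 844.3) than on date 1 (955.2 to 1221) and date 2 (1004 to 1192), and 47.9% to 57.0% of probes were well above background. The 57.0% was the array of 1000 IU/ml IFN epsilon on date 3, and no other array used exceeded 54.5%. Of the ovarian epithelial and mesothelial markers 10 of 11 named were well above background on all arrays. Of 15 macrophage and leukocyte markers 5 were on all arrays and 6 on none. Those on all arrays were Itgam, Cd68, Csf1r, Cd14 and Cd3e, and those on none were Ptprc, Lyz2, Mrc1, Fcgr1, S100a8 and Flt3. The summed level of the 15 lay between 3.28 and 4.95 times the array's 75th percentile over all samples, with 4.01 to 4.42 in untreated cells and 3.58 to 4.51 at 1000 IU/ml IFN epsilon. Of 8 endothelial markers 2 (Kdr and Eng) were on all arrays and 4 (Cdh5, Tie1, Emcn and Vwf) on none. Of 10 fibroblast and mesenchymal markers 7 were on all arrays and 1 (Lum) on none. Their summed level in untreated cells was 302 to 372 times the 75th percentile, beside 322 to 411 for the 11 ovarian epithelial and mesothelial markers. Among the latter Epcam (intensity 20.6 to 106) and Cdh1 (84.4 to 664) were dim. The labels name a single cell line, and in bulk RNA fewer responding cells and less RNA per cell cannot be told apart. Levels below are log2 intensities relative to the array's 75th percentile, so that 0 is that percentile, and levels of different probes are not comparable. Differences are log2 fold changes ± SE from limma, called at an adjusted p under 0.05 over all genes tested. Unless a block is named they come from a fit without one, which does not use the pairing of samples by date. The median 95% confidence interval over all genes reached 0.453 to either side with 3 against 3 samples.

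Nos2 and Vcam1 rose with 1000 IU/ml IFN epsilon: 2 of the 10 members were called higher and 0 lower, against 2.24% of all genes tested that were called higher and 0.0693% called lower. Since the members were chosen with earlier results of these data known, these shares are a description and not a test of the group. With the median member at 0.00 and the median of all genes at -0.05, the other 8 members differed by -0.18 to 0.24 and were not called. With 1000 IU/ml IFN beta limma called 0 of 10 members, against 1.59% of all genes. An unadjusted p under 0.05 was found for 3 members (Nos2, Vcam1 and Cxcl1), beside 788 of the 14425 genes. At 10 and 100 IU/ml IFN epsilon 0 of 10 were called, beside 0.201% and 1.05% of all genes. There 0 and 2 members had an unadjusted p under 0.05, beside 152 and 483 of the 14425 genes. At 10 and 100 IU/ml IFN beta 0 of 10 were called, beside 0% and 0.111% of all genes. There 0 and 0 members had an unadjusted p under 0.05, beside 48 and 183 of the 14425 genes. These 6 comparisons share the untreated samples.

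Nos2 encodes inducible nitric oxide synthase, which makes nitric oxide from arginine in activated macrophages and in many cytokine-treated cells. In untreated cells its level was -4.94, -6.11 and -5.46 on dates 1, 2 and 3, and the probe was well above background on 4 of 6 arrays. At 10 IU/ml IFN epsilon it was -5.29, -4.72 and -5.52, within the untreated range on dates 1 and 3 and above it on date 2. At 100 IU/ml it was -5.01, -3.75 and -4.39. Dates 2 and 3 were then above every untreated sample and date 1 was not. The highest dose of IFN epsilon took it to -2.88, -2.99 and -3.88, with all samples above all untreated ones, a separation in this direction found in 6.2% of genes tested. Nos2 was thus 4.77-fold higher (2.25 ± 0.48, 95% confidence interval 1.23 to 3.28, n = 3 against 3, limma adjusted p = 0.0171). Against the untreated sample of the same date the differences were 2.06, 3.12 and 1.58.

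With IFN beta Nos2 stood at -4.75 and -5.63 at 10 IU/ml and at -5.86 and -4.66 at 100 IU/ml, 2 samples each. In each pair 1 sample lay within the untreated range and 1 above it. With 1000 IU/ml it was -4.52, -4.44 and -3.13, so date 3 was far above the other dates. All 3 lay above all untreated samples, which 5.42% of genes did in this direction, but the difference of 1.47 ± 0.48 (0.45 to 2.50) was not called (adjusted p = 0.305). It was 0.42, 1.67 and 2.33 within dates 1, 2 and 3. Without the date 3 sample it was 1.02 ± 0.48 (adjusted p = 0.998).

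The Nos2 probe was dim. The 2 arrays of an untreated sample differed by 1.35 on date 1, 1.21 on date 2 and 0.39 on date 3, while for the other members such pairs differed by at most 0.53. The call at 1000 IU/ml IFN epsilon was lost without the treated sample of date 1 (2.07, adjusted p = 0.0896) or date 2 (2.12, adjusted p = 0.0890), and without the untreated sample of date 2 (1.95, adjusted p = 0.108) or date 3 (2.27, adjusted p = 0.0661). It was also lost with the slide as a block (2.25, adjusted p = 0.149), where the differences within the 3 slides were 0.89, 2.65 and 3.23. Slide 1 held the treated sample of date 3 with untreated dates 1 and 3. On slides 2 and 3 the treated and untreated samples came from different dates, so these differences mix slide and date. Normexp background correction gave 0.99 (adjusted p = 0.104) and the authors' deposited values 1.32 (adjusted p = 0.172).

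Vcam1 encodes the adhesion molecule that binds integrin alpha4 beta1 on leukocytes. Its level in untreated cells was 0.35, 0.30 and 0.12 on dates 1, 2 and 3, a narrower spread than that of Nos2. At 10 IU/ml IFN epsilon it was 0.35, 0.40 and 0.23, overlapping the untreated samples. At 100 IU/ml it was 0.51, 0.81 and 0.66, above all untreated samples, as 3.29% of genes tested were, and the difference of 0.40 ± 0.17 was not called (adjusted p = 1). The 1000 IU/ml samples were at 1.38, 1.38 and 0.89. All samples then lay above all of the lower doses and of untreated cells, and 6.2% of genes tested lay above all untreated samples at this dose. Vcam1 was 1.94-fold higher than in untreated cells (0.96 ± 0.17, 0.60 to 1.32, n = 3 against 3, adjusted p = 0.00435). Within dates the differences were 1.03, 1.08 and 0.77.

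With IFN beta Vcam1 was 0.41 and 0.28 at 10 IU/ml and 0.36 and 0.37 at 100 IU/ml. With 1000 IU/ml it was 0.76, 0.66 and 1.32, again with date 3 the highest and all 3 above every untreated sample, as in 5.42% of genes. The difference of 0.66 ± 0.17 (0.29 to 1.02) was not called (adjusted p = 0.0918). It was 0.45 ± 0.15 (adjusted p = 0.495) without the date 3 sample. With normexp (0.71, adjusted p = 0.0350) and with the authors' deposited values (0.72, adjusted p = 0.0374) it was called. Vcam1 has a dimmer probe as well, whose difference at 1000 IU/ml IFN epsilon was 0.40 ± 0.21 (adjusted p = 0.799 over all probes) and at 1000 IU/ml IFN beta 0.16 ± 0.21, so the 2 probes disagree in size.

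**Figure D1:**
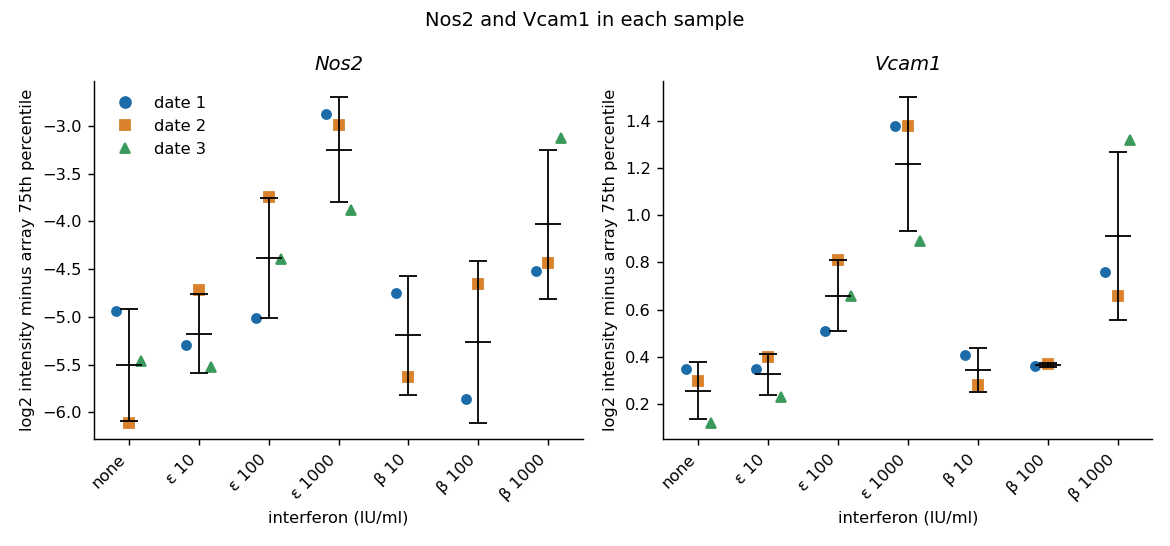
Level of Nos2 and Vcam1 (log2 intensity minus the array's 75th percentile) in each sample by interferon and dose, with date as colour and shape; black bars give the group mean and SD, n = 3, or 2 for IFN beta at 10 and 100 IU/ml. All samples at 1000 IU/ml of either interferon lie above the untreated ones, as in 6.2% of genes with IFN epsilon and 5.42% with IFN beta. The date 3 sample of 1000 IU/ml IFN beta is the highest of its group.

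Both calls at 1000 IU/ml IFN epsilon were lost when the 2 excluded arrays were added to the fit, although neither is in the groups compared. With all 24 arrays the adjusted p was 0.0932 for Nos2 and 0.0897 for Vcam1. Median scaling of the arrays moved the median of all genes at this dose from -0.05 to -0.43, and on that scale Nos2 stood at 1.87 (adjusted p = 0.137) and Vcam1 at 0.58 (adjusted p = 0.391).

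The dose step within IFN epsilon was tested as 1000 against 10 IU/ml, where 1 of 10 members was called higher, Vcam1, beside 1.39% of genes. Vcam1 differed by 0.89 ± 0.17 (n = 3 against 3, adjusted p = 0.0158) and Nos2 by 1.93 ± 0.48 (adjusted p = 0.0752). The Vcam1 call was lost without any 1 of 5 of the 6 samples compared, dates 1, 2 and 3 at 10 IU/ml and dates 1 and 2 at 1000 IU/ml (0.81 to 0.93, adjusted p from 0.0503 to 0.0887). Without the date 3 sample of 1000 IU/ml IFN beta, Nos2 was called too (adjusted p = 0.0303). Within IFN beta limma called 0 of 10 at 1000 against 10 IU/ml, beside 1.13% of genes. An unadjusted p under 0.05 was found for 3 members (Nos2, Vcam1 and Cxcl1), beside 682 of the 14425 genes.

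Between the interferons at equal dose, limma called 0 of 10 members at 10, 100 or 1000 IU/ml, beside 0.0971%, 0.0901% and 0% of genes. At these doses 0, 0 and 0 members had an unadjusted p under 0.05, beside 137, 420 and 192 of the 14425 genes. The difference of IFN epsilon minus IFN beta at 1000 IU/ml was 0.78 for Nos2 (95% confidence interval -0.24 to 1.81) and 0.30 for Vcam1 (-0.06 to 0.67). Both intervals include 0. The sign differed by date: for Nos2 it was 1.64 and 1.45 on dates 1 and 2 and -0.75 on date 3, and for Vcam1 0.62, 0.72 and -0.42. At 100 IU/ml the difference was 0.88 for Nos2 (-0.27 to 2.02) and 0.29 for Vcam1 (-0.11 to 0.70), with 3 samples against 2. All Vcam1 samples with 100 IU/ml IFN epsilon (lowest 0.51) lay above both with IFN beta (highest 0.37), which 5.19% of genes did in this direction.

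Over the other 8 members and the 6 treatments, the differences from untreated cells lay between -0.63 and 0.34, and limma called 0 of 48 (1 had an unadjusted p under 0.05). IFN beta at 10 and 100 IU/ml has no date 3 sample, while the untreated group does. Differences of these groups from untreated cells thus mix treatment and date. The highest, 0.34, was Birc3 at 100 IU/ml IFN beta. Its levels there were -2.38 and -2.62 on dates 1 and 2, beside -2.56, -2.66 and -3.30 in untreated cells on dates 1 to 3. The 95% confidence interval stayed within 1 log2 unit on both sides in 43 of the 48. With the replicate number as a block limma also called 0 of the 48, under which it called 0.499%, 1.62% and 8.11% of all genes at 10, 100 and 1000 IU/ml IFN epsilon and 0%, 0.291% and 3.45% at these doses of IFN beta.

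Icam1 encodes an adhesion molecule that binds integrin alphaL beta2, with a promoter that holds the GAS letters shown above. It was at -0.53, -0.95 and -0.62 in untreated cells on dates 1 to 3, and at -0.78, -1.17 and -0.71 with 1000 IU/ml IFN epsilon. The groups overlapped, and the difference was -0.18 ± 0.17 (-0.55 to 0.18, adjusted p = 1). With 1000 IU/ml IFN beta it was -0.91, -0.88 and -0.42, a difference of -0.04 ± 0.17. The upper bound with IFN epsilon was thus below the lower bound of Vcam1 (0.60), and the 2 genes were not tested against each other.

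Cxcl1 encodes a chemokine that attracts neutrophils and is among the quickest NF-kB responses. Its untreated level was 2.64, 2.58 and 2.61, and at 1000 IU/ml IFN epsilon it was 2.95, 2.37 and 2.21 (-0.10 ± 0.28, adjusted p = 1). With 1000 IU/ml IFN beta it was 2.72, 1.60 and 1.61. Date 1 was thus above the untreated samples, and dates 2 and 3 were below every other sample of the series used here. The difference of -0.63 ± 0.28 (-1.22 to -0.04, n = 3 against 3) was not called (adjusted p = 0.825). It was 0.08, -0.97 and -1.0 within dates 1, 2 and 3. Without the date 1 sample it was -1.0 ± 0.22 and was called (adjusted p = 0.0310), and against 10 IU/ml it went from -0.87 ± 0.31 (adjusted p = 0.541) to -1.24 ± 0.25 (adjusted p = 0.0171).

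For Tnfaip3 and Birc3 the date 3 samples lay apart from all others. Tnfaip3 encodes A20, an enzyme that edits ubiquitin chains and shuts the pathway down. It was at 1.52, 1.56 and 2.30 in untreated cells and at 1.47, 1.51 and 2.11 at 1000 IU/ml IFN epsilon (-0.10 ± 0.33, adjusted p = 1). The 5 samples of date 3 ranged from 2.11 to 2.50 and the samples of dates 1 and 2 from 1.34 to 1.65, with no overlap, as in 12.7% of genes for date 3 in this direction. Birc3 encodes cIAP2, a ubiquitin ligase that protects from tumour necrosis factor. Its level on date 3 was -3.41 to -3.03, below the range of the other dates (-2.73 to -2.19), a separation seen in 9.1% of genes. Its difference at 1000 IU/ml IFN epsilon was 0.23 ± 0.34 (adjusted p = 1). Date 3 is also the date with the lower 75th percentiles given above, and the part of that in these levels was not tested.

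Nfkbia encodes IkB alpha, the inhibitor that NF-kB itself induces within the hour, with the kappaB letters shown close to its start. It was at 3.80, 3.95 and 3.80 in untreated cells and 4.04, 3.99 and 3.63 at 1000 IU/ml IFN epsilon (0.04 ± 0.12, -0.21 to 0.29, adjusted p = 1). Over all 19 samples it ranged from 3.63 to 4.04. At 100 IU/ml IFN epsilon all samples (3.67, 3.76 and 3.66) lay below all untreated ones, as did 3.63% of genes in this direction.

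For the subunit genes limma called no treatment. Nfkb1 encodes p105, the precursor of p50. It was at -0.61, -0.57 and -1.0 in untreated cells and at -0.48, -0.20 and -0.79 with 1000 IU/ml IFN epsilon, a difference of 0.13, 0.37 and 0.21 on dates 1, 2 and 3 that was not called (0.24 ± 0.19, adjusted p = 1). On date 3 its samples (-1.04 to -0.76) lay below those of the other dates (-0.75 to -0.20), as in 9.1% of genes. Nfkb2, the precursor of p52 in the alternative pathway, was at 2.72, 2.30 and 2.55 in untreated cells and differed by -0.11 ± 0.17 with 1000 IU/ml of IFN epsilon and by -0.11 ± 0.17 with IFN beta. Relb, its usual partner, was at 1.46, 1.31 and 1.30 and differed by -0.04 ± 0.15 and -0.10 ± 0.15. The second probes of Nfkb2 (-0.11 ± 0.15) and Relb (-0.17 ± 0.17) at 1000 IU/ml IFN epsilon were not called either.

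**Figure D2:**
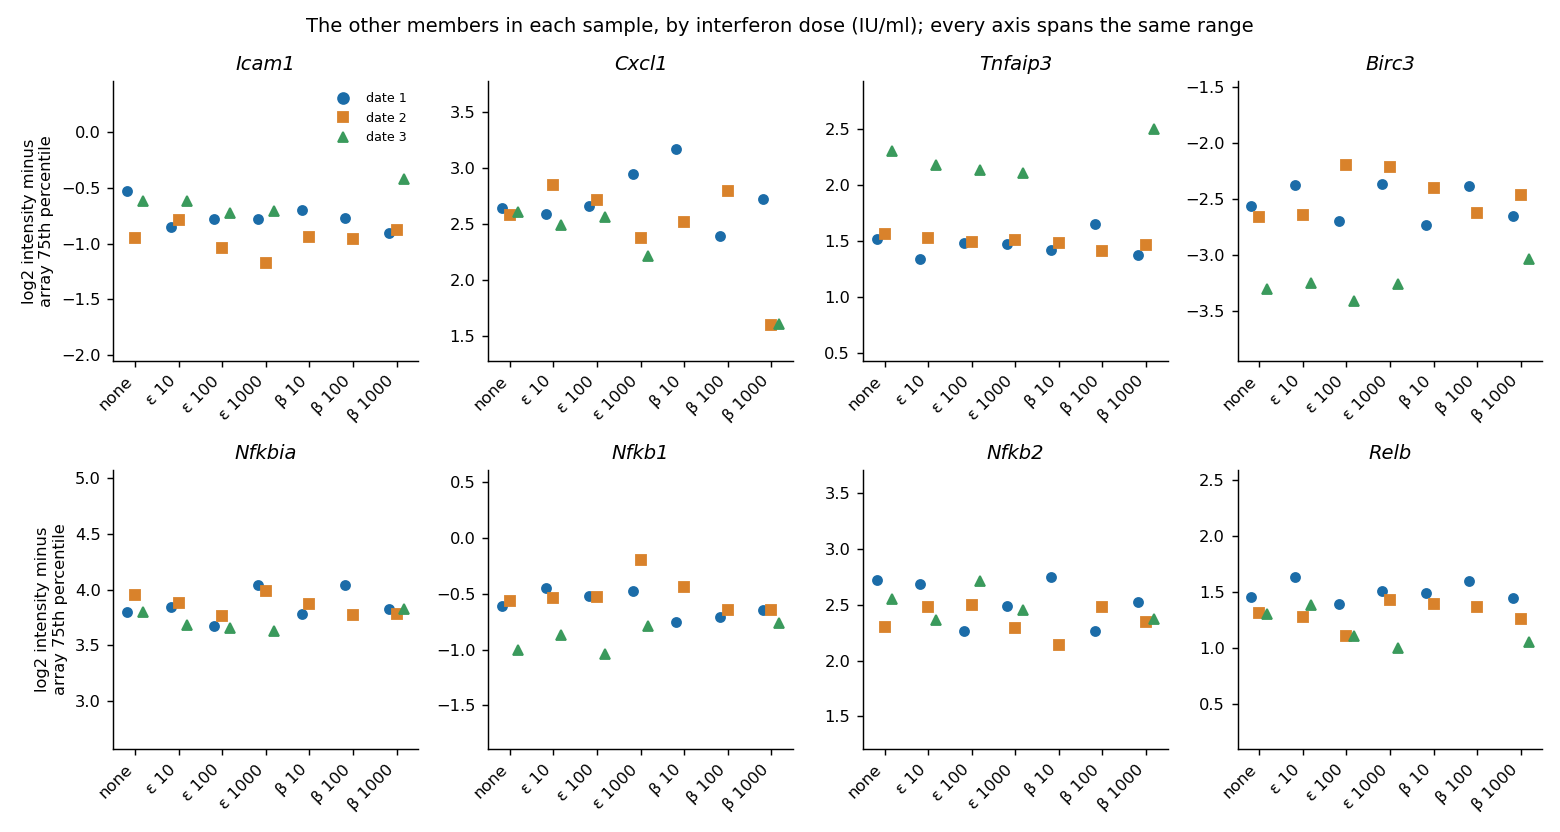
Level of the other 8 members (log2 intensity minus the array's 75th percentile) in each sample by interferon and dose, 19 samples, with date as colour and shape. Date 3 stands apart for Tnfaip3 and Birc3, and 2 Cxcl1 samples with 1000 IU/ml IFN beta (1.60 and 1.61) are the lowest.

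**Figure D3:**
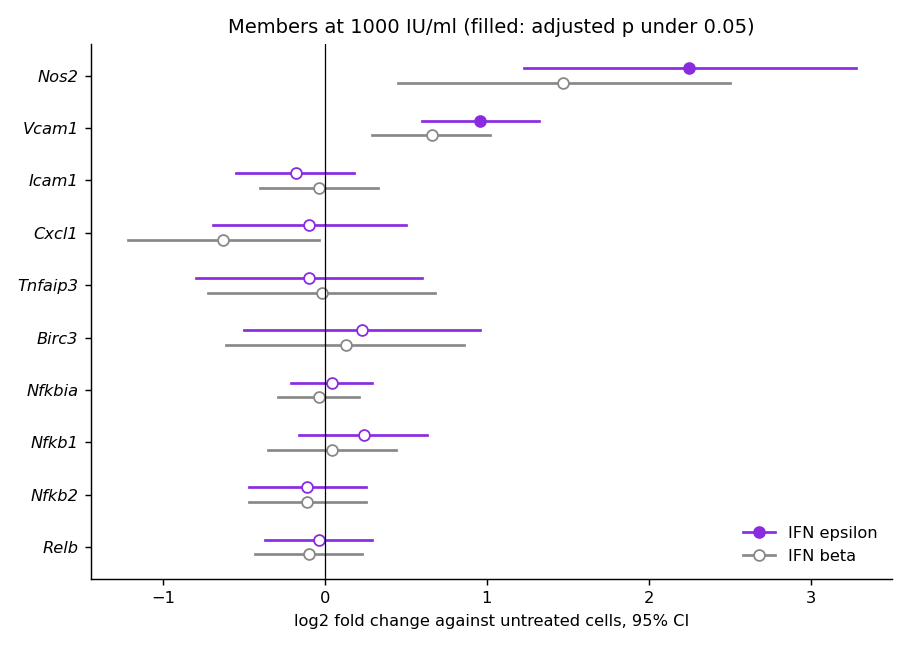
Log2 fold change of each member against untreated cells at 1000 IU/ml (limma, 3 against 3 samples) with its 95% confidence interval; filled points have an adjusted p under 0.05. Nos2 (2.25) and Vcam1 (0.96) with IFN epsilon are filled, and the other 8 members lie within -0.18 to 0.24 with IFN epsilon.

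Other genes of the pathway were examined as lists, also chosen with earlier results of these data known. Of 47 tested components of NF-kB signalling, 3 rose at 1000 IU/ml IFN epsilon and 0 fell, beside 2.24% and 0.0693% of all genes, and the list's median of 0.00 stood beside -0.05 for all genes. Tlr2, a receptor for bacterial lipoproteins, was at -0.67, -0.57 and -0.57 in untreated cells and at 0.97, 1.71 and 1.48 with treatment, a rise of 1.99 ± 0.43 (adjusted p = 0.0201). Myd88, the adaptor that links such receptors to the kinases, went from 1.92, 1.93 and 1.95 to 3.19, 3.65 and 3.66 (1.57 ± 0.34, adjusted p = 0.0206). Rnf31, the catalytic subunit of the linear ubiquitin ligase, rose by 1.11 ± 0.20 (adjusted p = 0.00579). For all 3 the treated samples lay above all untreated ones, as in 6.2% of genes tested. With 1000 IU/ml IFN beta 1 of 47 rose, Rnf31 (0.98 ± 0.20, adjusted p = 0.0220), a share near the 1.59% of all genes called, while Myd88 (1.40 ± 0.34, adjusted p = 0.0615) and Tlr2 (1.57 ± 0.43, adjusted p = 0.126) were not called. With the replicate block, under which 4.53% of genes were called higher and 3.58% lower at 1000 IU/ml IFN epsilon, the list had 7 higher and 1 lower. The lower one was Traf3 (-0.50 ± 0.08, adjusted p = 0.00181, named after its values were seen), a brake on the alternative pathway. With the block at 1000 IU/ml IFN beta 3 were higher and 1 lower, beside 2.79% and 0.652% of genes.

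Of 34 tested genes known as NF-kB regulated outside the 10 members, limma called 0 at 1000 IU/ml of either interferon, with list medians of 0.05 for IFN epsilon and 0.13 for IFN beta beside -0.05 and -0.04 for all genes. With the replicate block 9 were higher with IFN epsilon, beside 4.53% of all genes: Il6, Lif, Csf1, Ccl2, Ccl5, Ccl7, Mmp13, Gadd45b and Ripk2. With IFN beta 3 were higher (Il6, Mmp13 and Ripk2) and 1 lower (Ccl20), beside 2.79% and 0.652% of all genes. Il6, a cytokine named here after its values were seen, had a difference of 2.60 at 1000 IU/ml IFN epsilon with an SE of 1.21 without the block (adjusted p = 0.629) and 0.41 with it (adjusted p = 0.00211). The calls on the members themselves were the same in both fits, Nos2 (adjusted p = 0.0188 with the block) and Vcam1 (adjusted p = 0.00490).

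Of 13 tested nitric oxide and arginine genes limma called 0 at 1000 IU/ml of either interferon, with medians of 0.02 and -0.03, beside -0.05 and -0.04 for all genes. With the block 1 was called for each, Gch1, which makes a cofactor of nitric oxide synthase and was named after its values were seen (0.35 ± 0.09, adjusted p = 0.0325, and 0.39 ± 0.09, adjusted p = 0.0366). Of 17 tested leukocyte adhesion molecules and their receptors 1 rose at 1000 IU/ml IFN epsilon, beside 2.24% of all genes: Icam2, from -4.70, -4.92 and -5.11 to -3.54, -3.77 and -3.25 (1.39 ± 0.24, adjusted p = 0.00341). With IFN beta Icam2 differed by 0.53 ± 0.24 (adjusted p = 0.864) and 0 of 17 were called. The Icam2 probe was dim as well. With the replicate block Icam2 and Cd47 (0.46 ± 0.10, adjusted p = 0.0175) were higher with IFN epsilon, beside 4.53% of genes. Cd47, named after its values were seen, was also higher with IFN beta (0.48 ± 0.10, adjusted p = 0.0259), beside 2.79% of genes. At 10 and 100 IU/ml of either interferon 0 genes of these 4 lists were called, with or without the block.

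The IRF and STAT factors, which carry the interferon signal itself, gave the scale of the response in the same arrays. Of 8 tested, 5 rose at 1000 IU/ml of each interferon, where 2.24% of all genes were called higher with IFN epsilon and 1.59% called with IFN beta. With IFN epsilon Irf7 rose by 3.89 ± 0.35, Stat2 by 2.91 ± 0.33 and Irf9 by 1.64 ± 0.19, for example. At 10 IU/ml IFN epsilon 3 had risen and at 100 IU/ml 4 (beside 0.201% and 1.05% of all genes called), doses at which 0 members were called. At 10 and 100 IU/ml IFN beta 0 of 8 were called, beside 0% and 0.111% of all genes. With the replicate block 4 and 4 rose at these doses of IFN epsilon, beside 0.499% and 1.62% of all genes. With IFN beta the block gave 0 and 3, beside 0% and 0.291%.

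**Figure D4:**
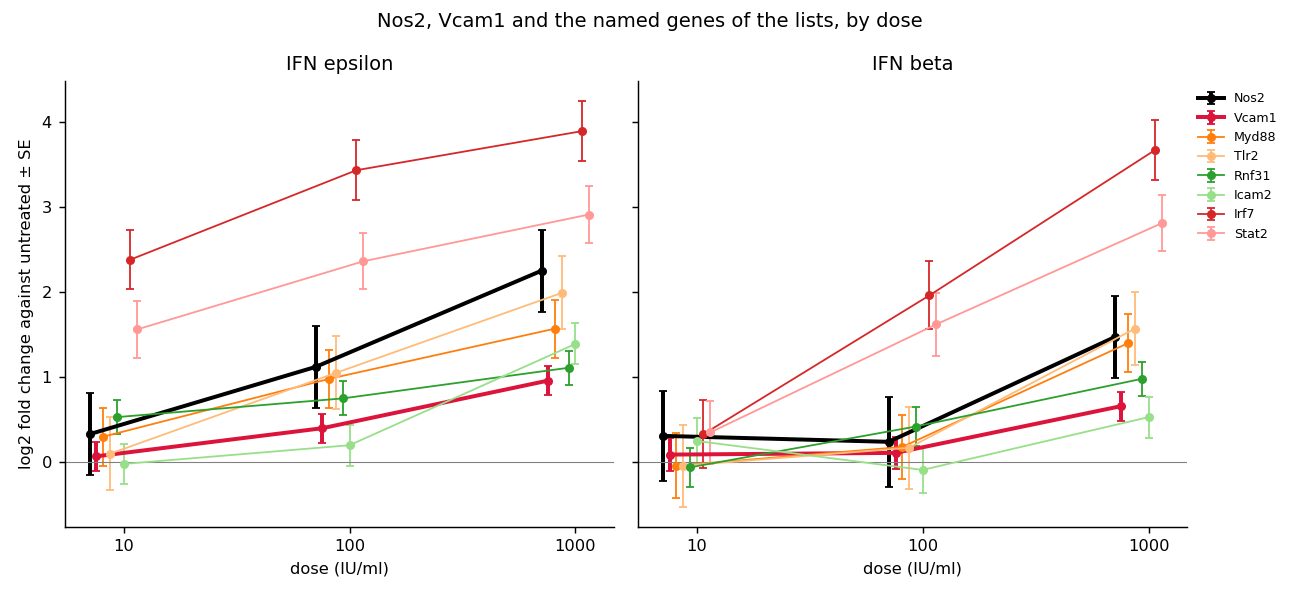
Log2 fold change ± SE against untreated cells at 10, 100 and 1000 IU/ml of IFN epsilon (left) and IFN beta (right), for Nos2 and Vcam1 (thick lines) and 6 genes of the lists. At 1000 IU/ml IFN epsilon Nos2 (2.25) lies between Tlr2 (1.99) and Stat2 (2.91), and Vcam1 (0.96) near Rnf31 (1.11).

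The genes most like Nos2 and Vcam1 were those with the smallest root mean square difference over the 6 log2 fold changes against untreated cells. For Nos2 the nearest were Hdc (0.0983), Gm12216 (0.121), Armc3 (0.122) and Vnn1 (0.141). For Vcam1 they included Flt3l (0.0649), Kansl1l (0.0692), Usp12 (0.0812) and Map3k5 (0.0886). Hdc, for instance, stood at 0.22, 1.17 and 2.07 over the IFN epsilon doses, where Nos2 stood at 0.33, 1.12 and 2.25. The 6 fold changes share the untreated samples, so these distances are a description.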

How the data were processed

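RNA of ID8 cells was labelled with a single dye and hybridised to Agilent arrays. The deposited scanner files hold a processed signal, an intensity from which, per the file headers, Feature Extraction 11.0.1.1 had subtracted background array by array. The deposited value table holds log2 numbers made by the authors with R 3.6.1 and limma 3.42.0, per the submitters' processing notes, and which steps were run is not given in the sources used here. All its columns share the same lowest and highest value, as quantile-normalised values would, and correlated with log2 of the scanner signal at 0.989 to 0.995. It was used as an alternative, and whether its background was corrected stays unknown.

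From these intensities, log2 was taken and the 75th percentile of the array subtracted. Control and outlier spots were left out and 0 spots were saturated. Kept were probes that rose well above background in 2 or more samples of any group, and the brightest probe stood for its gene. RefSeq accessions named 32994 of 56605 probes. Limma 3.58.1 in R 4.3.3 (data.table (version 1.17.8), statmod 1.5.0) fitted 14425 genes in all 7 groups together, without a block (12 residual degrees of freedom), for 11 comparisons with Benjamini-Hochberg adjustment, and was tested on simulated data. Normexp used an offset of 50 on the median spot signal. Other alternatives were other scalings, filters and blocks, the replicates left out in turn and, added after seeing the data, each date left out. Plots were drawn with matplotlib 3.10.9 in Python 3.11.15. The number of arrays limits the precision.

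Replicate numbers pair the samples: per the series text each replicate had its own date, and deviations from group means correlated at a median of 0.60 between samples of the same number (29 of 30 pairs over 0.1) and -0.40 between different numbers (groups with 3 samples). The members, gene lists and the naming rule were chosen with earlier results of these data known. The rule named all members, up to 3 called genes per list with the largest change at 1000 IU/ml, and the 5 genes most like Nos2 and Vcam1. Some genes the rule named are not reported here.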

Additional observations from a re-analysis of the deposited data

Results flagged for a closer look

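The 2 arrays that the labels mark as excluded took no part in the comparisons, and on both of them Nos2 and Vcam1 were above every untreated array. Nos2 was at -3.51 on the array of 100 IU/ml IFN beta and at -4.17 on that of 10 IU/ml, against -6.71 to -4.27 on the 6 untreated arrays. Vcam1 was at 1.30 and 0.82 on the same arrays, against 0.04 to 0.36. Both are arrays of date 3, the date on which the sample of 1000 IU/ml IFN beta was also the highest of its group for both genes. On both of these arrays Relb was below every untreated array (1.04 at 100 IU/ml and 0.99 at 10 IU/ml, against 1.23 to 1.52). Cxcl1 was below them on the array of 100 IU/ml (2.05, against 2.37 to 2.90) and Birc3 on that of 10 IU/ml (-3.50, against -3.40 to -2.54). The other 5 members, and Cxcl1 and Birc3 on the remaining array, were within the range of the untreated arrays. Some samples that were used also lay below every untreated array for these genes. For Relb they included date 3 at 1000 IU/ml IFN beta (1.05) and dates 2 and 3 at 100 IU/ml IFN epsilon (1.11 each). For Cxcl1 they included date 3 at 1000 IU/ml IFN epsilon (2.21), and for Birc3 date 3 at 100 IU/ml IFN epsilon (-3.41).

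Relb was below the untreated sample of the same date in all 3 samples with 100 IU/ml IFN epsilon (-0.07, -0.20 and -0.19) and above it in both samples used with 100 IU/ml IFN beta (0.14 and 0.06). On the array of this group that is labelled excluded the Relb difference was -0.26, so the pattern of signs holds only with that array left out. The difference between the interferons, -0.28 (95% confidence interval -0.65 to 0.09), was picked for this pattern of signs, which was not tested as such, and limma did not call it (adjusted p = 0.999). On the second Relb probe the pattern did not hold. With 100 IU/ml IFN beta that probe was at -0.44 and -0.69 on dates 1 and 2, beside -0.45 and -0.64 in untreated cells, so date 2 was below. Its difference between the interferons was -0.24 ± 0.19.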

How the results depend on the processing

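Over 36 alternatives no call changed its direction. Of the 10 members, 2 were called at 1000 IU/ml IFN epsilon against untreated cells; 1 was called with normexp, quantile normalisation, the deposited values, the slide as a block, or the first array of each untreated sample, and 0 with median scaling, all 24 arrays, only the groups compared, date 1 left out or date 2 left out. Leaving out single replicates gave 1 to 2. At 1000 IU/ml IFN beta the count was 0, but 1 with normexp or the deposited values and 0 to 1 without single replicates. For 1000 against 10 IU/ml IFN epsilon it was 1, but 0 with median scaling, the mean of all kept probes, all 24 arrays, only the groups compared, or date 1 or 2 left out, 2 with the second array of each untreated sample, and 0 to 2 without single replicates. For 1000 against 10 IU/ml IFN beta it was 0, and 0 to 1 without single replicates. The other 7 comparisons had 0 throughout. Fits without a date or with only the groups compared have fewer samples; for the rest the cause was not tested. The replicate block changed no call on a member, with 2 called at 1000 IU/ml IFN epsilon and 1 for 1000 against 10 IU/ml. It raised all genes called at 1000 IU/ml IFN epsilon from 333 to 1170 and at 1000 IU/ml IFN beta from 230 to 497. Nos2 at 1000 IU/ml IFN epsilon ranged from 0.99 to 2.59 and Vcam1 from 0.58 to 1.12. Leaving out 1 of 2 IFN beta samples leaves a lone sample, assumed to vary like the other groups. The Nos2 probe lies close to background.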
